A study of Homo sapiens with 6 samples.

Results

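The 35 genes described here carry the integrated stress response and the unfolded protein response, and they were chosen by name as stress sensors, the transcription factors ATF4 and XBP1, targets of ATF4, chaperones of the endoplasmic reticulum (ER) and genes of ER-associated degradation (ERAD). They are called the members or the stress genes below. All 35 were found among the 56638 gene symbols of the count files, and 34 had enough reads to be tested. The remaining gene, VLDLR, the very low density lipoprotein receptor and an ATF4 target, had 8, 6 and 9 reads in the ZFP90 knockout libraries and 10, 7 and 16 reads in the control libraries.

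The study sequenced RNA from the human colorectal cancer line HCT116, a long-established culture line, at passages 16 to 19. The ZFP90_KO group held 3 libraries of HCT116 cells in which guide RNAs had been aimed at exon 3 of ZFP90, a gene for a zinc finger protein, and the Control group held 3 libraries labelled as control HCT116 cells. No drug or other stressor is named for either group, and what the control cells received is not stated. The sources used here do not say whether the knockout was 1 clone or a pool, or whether the replicates came from separate cultures, so p-values reflect only how these libraries scatter, and that scatter may be technical.

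ER proteins are folded in the ER lumen, and 3 sensors in the ER membrane respond when unfolded protein builds up there. PERK (EIF2AK3) phosphorylates the initiation factor eIF2, as does the amino acid sensor GCN2 (EIF2AK4) in the cytosol, and translation of ATF4 then increases, which raises genes of amino acid supply and stress. IRE1 (ERN1) splices the XBP1 mRNA into the form that encodes an active factor, and ATF6 is cut to release another; these factors raise chaperone and ERAD genes. Gene-level read counts show neither the translation of ATF4 nor the splicing of XBP1.

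Sequencing depth was 13424356 to 17012910 reads assigned to genes per library, at which 3 reads correspond to 0.176 to 0.223 CPM (read counts scaled to a common library size of 1e6 reads), a limit that covers counting error only. Libraries labelled knockout held more, not less, mRNA of the targeted gene: ZFP90 stood at 86.9, 80.5 and 89.8 CPM in ZFP90 KO libraries and at 47.5, 47.4 and 43.1 CPM in Control libraries, which is 0.90 on the log2 scale (SE 0.066) with an adjusted p of 5.1e-05 by edgeR's quasi-likelihood test. A count over the whole gene does not show whether a transcript carries a frameshift, so this value does not check the edit, and every direction below is that of the libraries labelled ZFP90 KO. Summed CPM of 6 epithelial markers was 2670 to 2790 in ZFP90 KO libraries and 2697 to 2831 in Control libraries. KRT8 made up the largest share, KRT18 was lower in ZFP90 KO cells (-0.23 on the log2 scale, adjusted p = 0.0394), and VIL1 had 0 to 2 reads per library. None of 6 leukocyte markers passed the filter on low counts, with sums of 0.78 to 1.03 CPM in ZFP90 KO libraries and 0.724 to 1.19 CPM in Control libraries. Fibroblast markers summed to 75.6 to 96.8 CPM in ZFP90 KO libraries and 74.8 to 95.6 CPM in Control libraries. COL1A1 made up most of that sum, at 66.8 to 82.9 CPM in ZFP90 KO libraries and 66.6 to 84.7 CPM in Control libraries. DCN, LUM and PDGFRB reached at most 0.993 CPM. Endothelial markers summed to 2.24 to 3.08 CPM in ZFP90 KO libraries and 2.04 to 2.39 CPM in Control libraries. The T cell marker CD3E and the endothelial marker PECAM1 had 0 reads in every library.

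A pair of libraries stood apart, Control replicate 2 along whole chromosomes and ZFP90 KO replicate 3 in the stress genes. Control replicate 2 was low on chromosomes 6 to 9, X and the mitochondrial genome, with median levels of 53.3% to 87.7% of the other controls, against 102% to 104% on every other autosome. ZFP90 KO replicate 3 was the lowest ZFP90 KO library for 31 of the 34 tested stress genes, while its median over all genes was 100% of the other ZFP90 KO libraries. Leaving out ZFP90 KO replicate 3 raised the log2 fold change of 32 of the 34, which follows from its low values. Values without either library stand beside the main ones where they bear on a result.

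As a set, the stress genes moved little between ZFP90 KO and Control cells. XBP1 was higher in ZFP90 KO cells, and EIF2AK4, CRELD2 and EDEM1 were lower, at an adjusted p under 0.05 (edgeR quasi-likelihood test, Benjamini-Hochberg adjustment over all 16369 genes tested). That is 4 of 34 genes, or 11.8%, where 21.1% of all genes tested passed the same threshold. By direction, 1 of 34 was higher against 9.73% of all genes, and 3 of 34 were lower against 11.4%. In bulk RNA, a change in every cell and a change in a share of the cells cannot be told apart. Without Control replicate 2 the counts were 2 higher and 4 lower, when 27.7% of all genes were called. Without ZFP90 KO replicate 3 they were 1 higher and 0 lower by edgeR, with 9 members at an unadjusted p under 0.05 and 11.6% of all genes called. The lower estimates in that fit were -0.165 for EIF2AK4, -0.255 for CRELD2 and -0.194 for EDEM1, close to the main values, so the calls ended with little change in size. Without ZFP90 KO replicate 1 there were no calls among the members by edgeR, with 6 members at an unadjusted p under 0.05 and 10.7% of all genes called; other tools were not run on subsets of libraries. EDEM1 alone passed when Control replicate 1 was left out, with 13.1% of all genes called. XBP1 and CRELD2 alone passed when Control replicate 3 was left out, with 15.4% of all genes called.

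Fold changes were small on the log2 scale. The median over the 34 genes was -0.029, against 0.008 over all genes, and the median size was 0.087, against 0.184 over all genes. NUPR1 had the largest estimate, 0.38. A log2 fold change beyond 0.25 in either direction was estimated for 2 of 34 genes (5.88%), against 38.2% of all genes. The 95% interval lay within 1.5-fold either way for 33 of 34 genes, all but NUPR1, against 60.5% of all genes. The stress genes were also measured more precisely, with a median SE of 0.0581 against 0.108 over all genes. These contrasts in size and interval were not adjusted for precision or level, and genes of like level were not compared. The ZFP90 KO and Control libraries did not overlap for 12 of the 34 genes (35.3%), against 41.2% of all genes tested. Of the 12, 4 were higher and 8 lower, where 20.9% of all genes were higher without overlap and 20.3% lower.

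**Figure D1:**
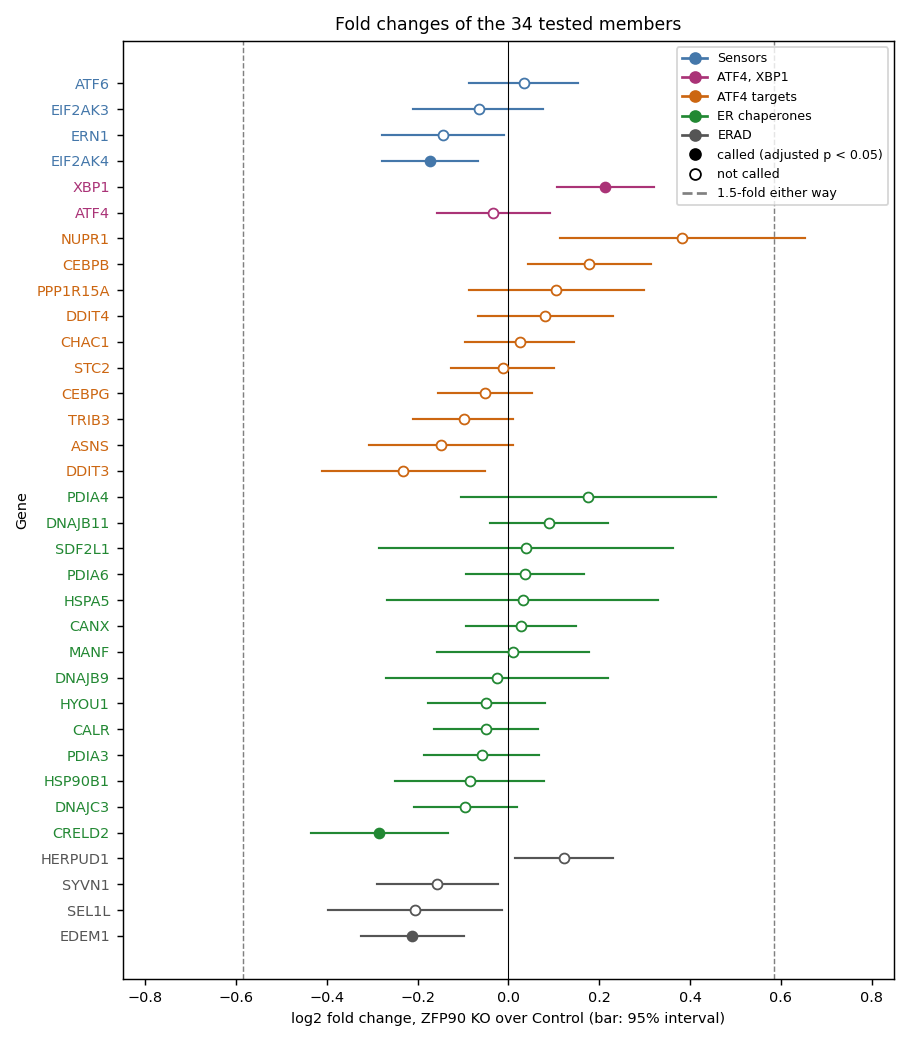
Log2 fold change of each of the 34 tested genes, ZFP90 KO over Control, with its 95% interval (bar), ordered by role down the page; filled points passed an adjusted p of 0.05 and dashed lines mark 1.5-fold. XBP1, at 0.21, is the 1 filled point right of 0, EIF2AK4, CRELD2 and EDEM1 are filled and left of it, and the interval of NUPR1 alone crosses a dashed line.

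**Figure D2:**
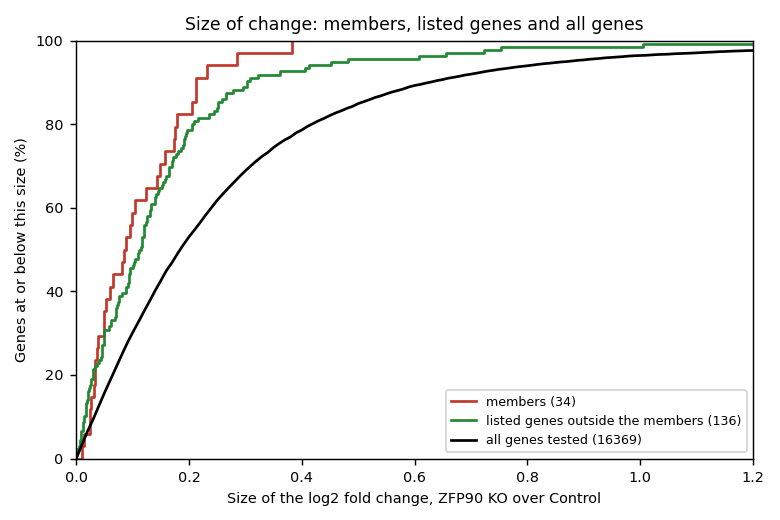
Cumulative share of genes (y axis, percent) at or below a given size of log2 fold change (x axis, direction ignored) for the 34 tested stress genes, 136 related genes outside them and all 16369 genes tested. The curve of the stress genes reaches 100% at 0.38, while 38.2% of all genes lie beyond 0.25.

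Among the sensors, 1 of 4 was lower, where 11.4% of all genes tested were lower, and none was higher. Their median log2 fold change was -0.105, and with so few genes the count does not set them apart from that share. EIF2AK4 encodes GCN2, the kinase that detects uncharged tRNA. Its level was 81.0, 80.1 and 78.9 CPM in ZFP90 KO libraries and 90.7, 90.6 and 89.4 CPM in Control libraries. Every ZFP90 KO library lay below every Control library, and the spread within each group was small. EIF2AK4 fell by 11.3%, and on the log2 scale it fell by 0.17 (SE 0.046, adjusted p = 0.0302). The call held without Control replicate 2 and was lost without any of the other libraries, at adjusted p of 0.0669 to 0.1, and it was also lost with DESeq2 and without a filter on low counts.

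ERN1, which encodes IRE1, had 121.6, 129.0 and 111.4 CPM in ZFP90 KO libraries and 133.1, 133.7 and 133.3 CPM in Control libraries. The groups did not overlap and the controls were nearly equal, but ERN1 did not pass the adjusted threshold (log2 fold change -0.14, SE 0.059, adjusted p = 0.12), and without ZFP90 KO replicate 3 the estimate was -0.09 (adjusted p = 0.325). EIF2AK3, which encodes PERK, averaged 35.4 ± 1.73 CPM in ZFP90 KO libraries and 37.1 ± 0.374 CPM in Control libraries (SD, n = 3 each; log2 fold change -0.07). ATF6 averaged 206.9 ± 11.8 CPM in ZFP90 KO libraries and 202.1 ± 3.01 CPM in Control libraries (SD, n = 3 each; log2 fold change 0.03). For EIF2AK3 and ATF6 the libraries of both groups overlapped.

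The promoter windows of the called genes are shown because they hold the sites through which unfolded protein response factors are known to act, where such sites are present. The sequences are the 250 bases before the annotated start site, 5′ to 3′ on the gene's strand, from RefSeq on GRCh38.p14, and capitals mark a matched motif. Where a gene had more than 1 window, the window with the most matches before the start is shown. The window of EIF2AK4 held none of the motifs searched.

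EIF2AK4, chr15:39933865-39934114, plus strand: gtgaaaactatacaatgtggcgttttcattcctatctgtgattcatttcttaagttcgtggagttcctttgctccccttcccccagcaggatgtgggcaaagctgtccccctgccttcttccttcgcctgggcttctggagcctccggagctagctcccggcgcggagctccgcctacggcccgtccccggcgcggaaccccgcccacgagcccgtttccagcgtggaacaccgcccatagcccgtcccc

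The transcription factors gave 1 called gene of 2, where 21.1% of all genes tested were called. ATF4 had 661.4, 665.2 and 628.8 CPM in ZFP90 KO libraries and 653.9, 705.8 and 640.9 CPM in Control libraries. The groups overlapped, with the highest value in Control replicate 2 and the lowest in ZFP90 KO replicate 3. Its log2 fold change was -0.03, with a 95% interval of -0.16 to 0.09 (adjusted p = 0.71). The annotation lists 4 pseudogenes named after ATF4, with which reads could be shared, as well as 4 for ASNS, 2 for PDIA3 and 1 for XBP1.

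XBP1 was the only member called higher. It had 209.8, 201.3 and 194.9 CPM in ZFP90 KO libraries and 175.1, 171.8 and 176.0 CPM in Control libraries. All ZFP90 KO libraries exceeded all Control libraries, by 18.9 CPM at the closest. The means were 202.0 ± 7.48 CPM in ZFP90 KO libraries and 174.3 ± 2.22 CPM in Control libraries (SD, n = 3 each), which is 0.21 on the log2 scale (SE 0.047), or 15.9% more, with an adjusted p of 0.0139. Its adjusted p was 0.0672 when ZFP90 KO replicate 1 was left out and 0.0531 when Control replicate 1 was, so the call was lost in both cases. With scaling by library size alone, which moved the median of all genes to -0.06, the log2 fold change of XBP1 was 0.15 and the adjusted p 0.126.

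Of the 2 XBP1 promoter windows, the 1 shown holds an ERSE and the other held none of the motifs searched. The ERSE is the ER stress response element bound by ATF6 together with the factor NF-Y. It lies at bases -52 to -34 from the start.

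XBP1, chr22:28800570-28800819, minus strand: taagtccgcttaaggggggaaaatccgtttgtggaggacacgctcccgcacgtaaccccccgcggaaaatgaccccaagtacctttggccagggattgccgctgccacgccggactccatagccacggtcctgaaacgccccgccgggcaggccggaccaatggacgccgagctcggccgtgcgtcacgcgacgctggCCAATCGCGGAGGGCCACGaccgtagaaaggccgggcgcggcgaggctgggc

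None of the 10 tested ATF4 targets passed the threshold in either direction with edgeR, DESeq2 or limma-voom. These tools called 21.1%, 17.2% and 21.4% of all genes. Of the 10 targets, 3 had an unadjusted edgeR p under 0.05, against 35% of all genes tested. Other settings called some of them: NUPR1 passed with DESeq2 size factors (adjusted p = 0.049), at a minimum count of 30 (0.0491), without a filter (0.0357) and after correction of Control replicate 2 (0.023). CEBPB and DDIT3 passed with the replicate number as a block (0.0463 and 0.0497), without a filter (0.0487 and 0.0335) and after that correction (0.0179 and 0.0203). DDIT3 also passed with library size alone (0.0317), CEBPB without ZFP90 KO replicate 2 (0.0414), and ASNS after the correction (0.0117). That correction drew Control replicate 2 towards the other controls by construction, and 30.9% of all genes were called with it. For ASNS it gave an estimate of -0.237, beyond the main -0.149 and the -0.178 without Control replicate 2. In the main fit, the median log2 fold change of the 10 targets was 0.006. NUPR1, a small stress-induced chromatin protein, had 11.2, 10.1 and 9.42 CPM in ZFP90 KO libraries and 8.39, 7.11 and 8.14 CPM in Control libraries. The groups did not overlap, and the estimate was 0.38 (SE 0.12, adjusted p = 0.0505). CEBPB, a bZIP factor that can pair with ATF4, had 163.8, 144.5 and 156.4 CPM in ZFP90 KO libraries and 136.9, 131.5 and 142.5 CPM in Control libraries. Its groups were separated by 2 CPM (log2 fold change 0.18, SE 0.060, adjusted p = 0.0656). 

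DDIT3, which encodes the death-associated factor CHOP, pointed the other way. It had 63.9, 68.4 and 56.5 CPM in ZFP90 KO libraries and 69.6, 78.4 and 73.5 CPM in Control libraries. All ZFP90 KO libraries lay below the controls, by 1.2 CPM at the closest, and the log2 fold change was -0.23 (SE 0.079, adjusted p = 0.0695). The edgeR estimate was -0.16 without ZFP90 KO replicate 3 (adjusted p = 0.208) and -0.185 without Control replicate 2 (adjusted p = 0.0591). The pseudokinase gene TRIB3, also without overlap between groups, averaged 261.4 ± 10.9 CPM in ZFP90 KO libraries and 280.0 ± 5.22 CPM in Control libraries (SD, n = 3 each; log2 fold change -0.10, adjusted p = 0.183).

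ASNS, asparagine synthetase, lies on chromosome 7, where Control replicate 2 was low. Its level was 649.1, 711.5 and 611.9 CPM in ZFP90 KO libraries and 779.0, 698.2 and 709.0 CPM in Control libraries. The groups overlapped through ZFP90 KO replicate 2 and Control replicates 2 and 3, and the log2 fold change was -0.15 (SE 0.070, adjusted p = 0.167). Without Control replicate 2, the estimate was -0.18 and passed the threshold (adjusted p = 0.0373). The ASNS promoter window is the textbook place of a C/EBP-ATF response element (CARE), and the matching letters stood at bases -68 to -61.

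ASNS, chr7:97872409-97872658, minus strand: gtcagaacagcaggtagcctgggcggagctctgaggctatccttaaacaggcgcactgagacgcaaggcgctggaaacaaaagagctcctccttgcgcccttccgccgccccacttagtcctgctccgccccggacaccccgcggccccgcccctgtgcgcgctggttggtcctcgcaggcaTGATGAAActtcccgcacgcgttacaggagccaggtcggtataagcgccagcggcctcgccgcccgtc

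The other 5 ATF4 targets had overlapping groups and estimates between -0.052 and 0.105. STC2, a secreted glycoprotein, had a log2 fold change of -0.01, CEBPG, a bZIP partner of ATF4, -0.05, and CHAC1, a glutathione-degrading enzyme, 0.025. DDIT4, an inhibitor of mTORC1, had 0.08. PPP1R15A, the phosphatase subunit GADD34 that reverses eIF2 phosphorylation, had 0.105 (adjusted p = 0.416), and 0.18 without Control replicate 2 (adjusted p = 0.0497).

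Of the 14 chaperones and folding factors of the ER, 1 was lower (7.14%, against 11.4% of all genes tested) and none was higher. Their median log2 fold change was -0.007. CRELD2, a protein of the ER that is secreted under ER stress, had 32.6, 34.9 and 31.5 CPM in ZFP90 KO libraries and 41.7, 40.1 and 38.8 CPM in Control libraries. The groups were separated by 3.9 CPM. CRELD2 fell by 17.9%, and on the log2 scale it fell by 0.285 (SE 0.067, adjusted p = 0.0174). The adjusted p was 0.0727 without ZFP90 KO replicate 1, 0.0744 without ZFP90 KO replicate 3 and 0.0673 without Control replicate 1. The CRELD2 promoter window holds an ERSE on the opposite strand, at bases -80 to -62, so the capitals show its reverse complement.

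CRELD2, chr22:49918384-49918633, plus strand: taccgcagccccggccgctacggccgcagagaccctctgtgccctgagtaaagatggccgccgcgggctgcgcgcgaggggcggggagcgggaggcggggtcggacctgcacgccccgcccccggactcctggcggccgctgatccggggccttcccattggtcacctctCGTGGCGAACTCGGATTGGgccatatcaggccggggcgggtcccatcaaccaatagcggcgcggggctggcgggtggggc

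HSPA5 encodes BiP, the main Hsp70 chaperone of the ER lumen, whose level is the usual gauge of ER stress. It had 4615, 4716 and 3825 CPM in ZFP90 KO libraries and 4764, 3452 and 4660 CPM in Control libraries. Each group held 1 low library, ZFP90 KO replicate 3 and Control replicate 2, and the remaining libraries of both groups overlapped. The log2 fold change was 0.03 with a wide SE of 0.13 (adjusted p = 0.895). Without Control replicate 2 it was -0.10 (adjusted p = 0.318), and without ZFP90 KO replicate 3 it was 0.12 (adjusted p = 0.611), so the sign depended on which low library was kept and there was no call in any of these fits. HSPA5 lies on chromosome 9, where the median gene in Control replicate 2 stood at 70.3% of the other controls, and HSPA5 itself at 73.3%. Its promoter is a textbook carrier of the ERSE, and the matching letters stood at bases -66 to -48.

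HSPA5, chr9:125241344-125241593, minus strand: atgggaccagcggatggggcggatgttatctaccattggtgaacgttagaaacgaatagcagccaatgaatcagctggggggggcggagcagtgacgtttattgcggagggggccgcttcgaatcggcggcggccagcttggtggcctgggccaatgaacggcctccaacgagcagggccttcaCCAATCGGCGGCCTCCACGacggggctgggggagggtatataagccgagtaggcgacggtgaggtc

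Control replicate 2 was also low for a pair of chaperone genes on chromosome 7. PDIA4, a protein disulfide isomerase, had 473.0, 445.5 and 431.7 CPM in ZFP90 KO libraries and 444.3, 309.3 and 441.9 CPM in Control libraries. Control replicate 2 stood at 69.8% of the other controls, and the log2 fold change of 0.18 (adjusted p = 0.349) became 0.02 without it (adjusted p = 0.784). PDIA4 passed only in the edgeR fit without a filter on low counts (adjusted p = 0.0356). DNAJB9, a BiP cochaperone that restrains IRE1, had a log2 fold change of -0.025 (SE 0.11), and -0.15 without Control replicate 2 (adjusted p = 0.0699). HSPA5, PDIA4, DNAJB9 and ASNS were the 4 tested stress genes on the chromosomes where Control replicate 2 was low, and the other 30 lie elsewhere.

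**Figure D3:**
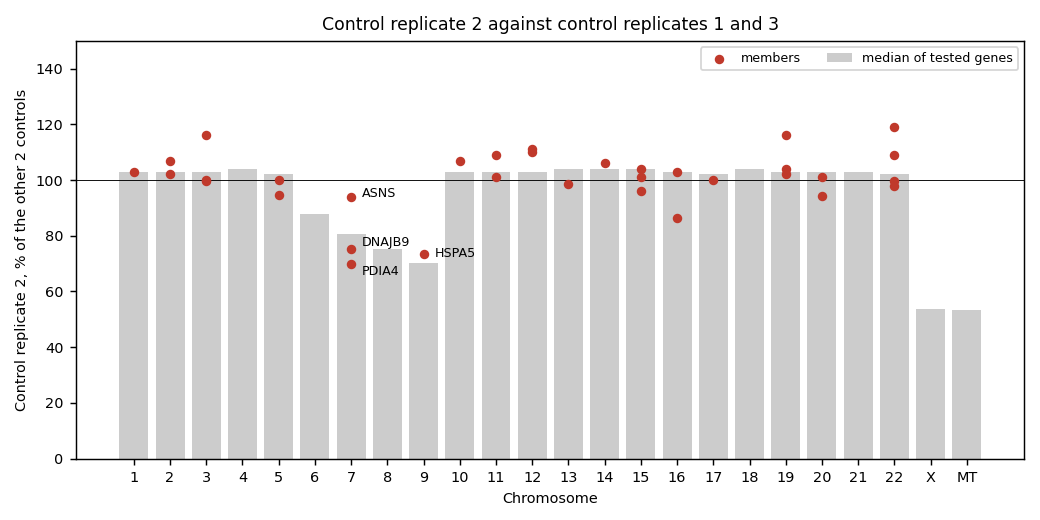
Level in Control replicate 2 as a percentage of Control replicates 1 and 3, for the median gene of each chromosome (grey bars) and for each tested stress gene (red points). HSPA5 at 73.3%, DNAJB9 at 75.2% and PDIA4 at 69.8% sit low with their chromosomes, and ASNS at 93.9% sits above the median of chromosome 7.

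The other 10 chaperone genes did not pass the threshold. Positive estimates belonged to DNAJB11 (0.09), a BiP cochaperone, SDF2L1 (0.04, and 0.18 without ZFP90 KO replicate 3 at an adjusted p of 0.344), a partner of DNAJB11, PDIA6 (0.04), a disulfide isomerase, CANX (0.03), the lectin chaperone calnexin, and MANF (0.01), a secreted ER stress factor that binds BiP. Negative estimates belonged to HYOU1 (-0.05), a nucleotide exchange factor for BiP, CALR (-0.05), calreticulin, PDIA3 (-0.06), the disulfide isomerase that works with calreticulin and calnexin, HSP90B1 (-0.085), the ER Hsp90 called GRP94, and DNAJC3 (-0.095), a BiP cochaperone. DNAJC3 alone of these had groups without overlap, at 146.1 to 159.9 CPM in ZFP90 KO libraries and 163.1 to 166.4 CPM in Control libraries (adjusted p = 0.216).

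The motif letters of the ERSE genes are set side by side to show how the fixed ends recur around a variable middle. The ERSE was searched as CCAAT and CCACG with 9 bases of any kind between them, on both strands of 300-base windows, from 250 bases before to 50 bases after the start, and capitals mark the fixed letters, written on the strand of the motif.

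HSPA5: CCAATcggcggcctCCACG
XBP1: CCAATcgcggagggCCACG
CRELD2: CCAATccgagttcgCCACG
CALR: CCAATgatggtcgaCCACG
CANX: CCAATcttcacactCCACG
PDIA6: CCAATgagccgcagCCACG
HSP90B1: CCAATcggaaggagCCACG
HSP90B1: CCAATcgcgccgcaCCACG

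Windows were found for 33 of the 35 genes, all but NUPR1 and PDIA3, and some genes had several starts, giving 46 windows. An ERSE stood in 9 of the 46 windows (19.6%) and 27 of all 35116 windows (0.0769%), and the genes were the 7 listed. The 27 include the 9, and among the 9 the same CANX site was met in several overlapping windows. The genes were chosen by name for this response and include a textbook carrier, HSPA5. The contrast with all windows was thus set in advance and carries no test. The shorter ERSE-II, ATTGG and CCACG with 1 base of any kind between them, stood in windows of HERPUD1, HYOU1 and SDF2L1 and in 0.0541% of all windows. The CARE letters TGATGNAA stood in windows of ASNS, CEBPG, CHAC1 and HERPUD1 and in 3.62% of all windows. The core TGACGTGG of the unfolded protein response element stood in a window of HYOU1 and in 0.729% of all windows, and there its letters overlapped an ERSE-II. Genes with the same element did not share a direction: XBP1 and CRELD2 both held an ERSE and were called on opposite sides, and the other 5 ERSE genes were not called. A match is a description of letters, not of binding.

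ERAD, which extracts misfolded protein from the ER for the proteasome, gave 1 lower gene of 4, where 11.4% of all genes tested were lower. None was higher, and the median log2 fold change of the 4 was -0.18. All 4 had an unadjusted p under 0.05, as did 35% of all genes tested. EDEM1, a lectin that directs glycoproteins to degradation, had 126.6, 136.0 and 126.1 CPM in ZFP90 KO libraries and 147.0, 149.8 and 153.3 CPM in Control libraries. The groups were separated by 11 CPM. EDEM1 fell by 13.6%, and on the log2 scale it fell by 0.21 (SE 0.050, adjusted p = 0.0185). The adjusted p was 0.0824 without ZFP90 KO replicate 1, 0.0774 without ZFP90 KO replicate 3 and 0.0616 without Control replicate 3. EDEM1 overlaps an antisense gene listed in the count files. Its window held none of the motifs searched.

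EDEM1, chr3:5187457-5187706, plus strand: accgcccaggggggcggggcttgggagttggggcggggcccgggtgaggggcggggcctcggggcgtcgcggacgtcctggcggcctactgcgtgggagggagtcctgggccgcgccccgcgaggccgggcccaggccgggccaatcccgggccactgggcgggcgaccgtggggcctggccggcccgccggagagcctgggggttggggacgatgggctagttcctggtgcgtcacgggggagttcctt

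SYVN1 encodes HRD1, the ubiquitin ligase of the ERAD channel, and SEL1L its partner. SYVN1 had 75.2, 77.9 and 72.3 CPM in ZFP90 KO libraries and 80.4, 88.8 and 82.3 CPM in Control libraries, without overlap (log2 fold change -0.16, SE 0.059, adjusted p = 0.0912). SEL1L had 290.0, 330.4 and 258.1 CPM in ZFP90 KO libraries and 341.4, 350.4 and 321.0 CPM in Control libraries. ZFP90 KO replicate 2 lay within the range of the controls (log2 fold change -0.21, SE 0.084, adjusted p = 0.118). Without ZFP90 KO replicate 3 the estimate for SEL1L was -0.12 (adjusted p = 0.317), and without ZFP90 KO replicate 2 it was -0.30 and passed the threshold (adjusted p = 0.0309). HERPUD1, an ER membrane protein that supports HRD1, was in the opposite direction, with 182.7, 182.4 and 171.2 CPM in ZFP90 KO libraries and 161.7, 167.1 and 163.8 CPM in Control libraries. Its groups did not overlap (log2 fold change 0.12, SE 0.048, adjusted p = 0.101). Other edgeR settings called more ERAD genes. SEL1L passed with library size alone (adjusted p = 0.0485), without a filter (0.0143) and with the replicate number as a block (0.0404). After correction of Control replicate 2, SEL1L (0.0458), SYVN1 (0.0441), HERPUD1 (0.027) and EDEM1 (0.0117) all passed, when 30.9% of all genes were called. The correction narrows the scatter among the controls by construction, so these calls are not separate support.

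**Figure D4:**
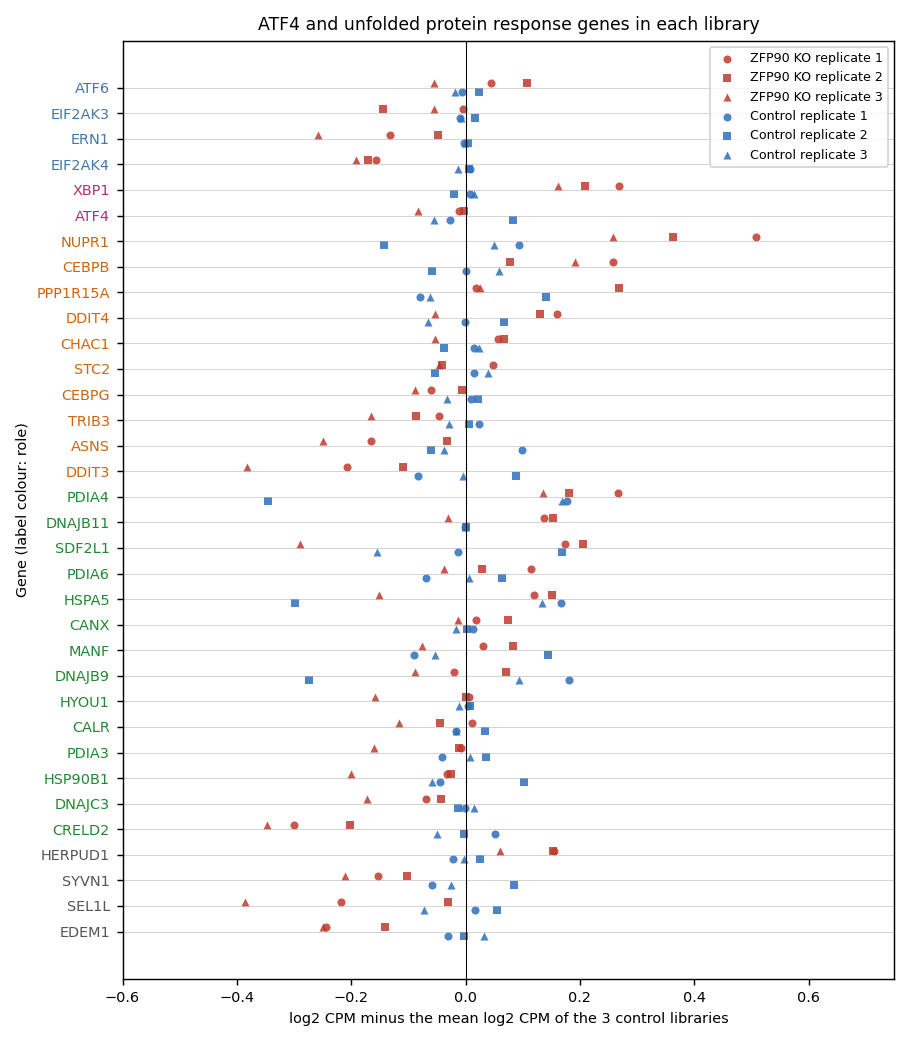
Level of each tested gene in each library (log2 CPM minus the mean of the 3 control libraries, x axis), ZFP90 KO in red and Control in blue, with a marker shape for each replicate and gene names coloured by role. The red triangles, ZFP90 KO replicate 3, are the lowest red points in 31 of 34 rows.

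ZFP90 KO replicate 3 was the lowest ZFP90 KO library for 31 of 34 genes (91.2%), where it was lowest for 31.6% of all genes tested. The median gene stood at 92.4% of the mean of ZFP90 KO replicates 1 and 2, against 100% over all genes. This pattern was noticed in the data and carries no test. Off chromosomes 6 to 9 it held for 27 of 30 genes (90%).

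By role, ZFP90 KO replicate 3 was below the mean of the other ZFP90 KO libraries for all 14 chaperones, all 4 ERAD genes, both factors, 9 of 10 ATF4 targets and 3 of 4 sensors. The chaperones stood at a median of 91.7%, with HSPA5 at 82% and SDF2L1 at 71.7%. Summed over the 14 chaperones, CPM was 11209, 11345 and 9896 in ZFP90 KO libraries and 11263, 10060 and 11111 in Control libraries. Without HSPA5 the sums were 6594, 6629 and 6071 CPM in ZFP90 KO libraries and 6498, 6608 and 6452 CPM in Control libraries, so ZFP90 KO replicate 3 stayed lowest and Control replicate 2 did not stand out. Among related genes outside the members, ZFP90 KO replicate 3 was lowest for 77 of 136 (56.6%). By list, it was lowest for 17 of 21 other ERAD genes, 17 of 24 translocon and oligosaccharyltransferase genes, 13 of 20 tRNA synthetases and 11 of 20 other ATF4 targets. It was lowest for 6 of 11 eIF2 genes, 9 of 22 other ER folding genes, 3 of 12 heat shock genes outside the ER and 1 of 6 genes of the ATF6 and CREB3 branch.

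**Figure D5:**
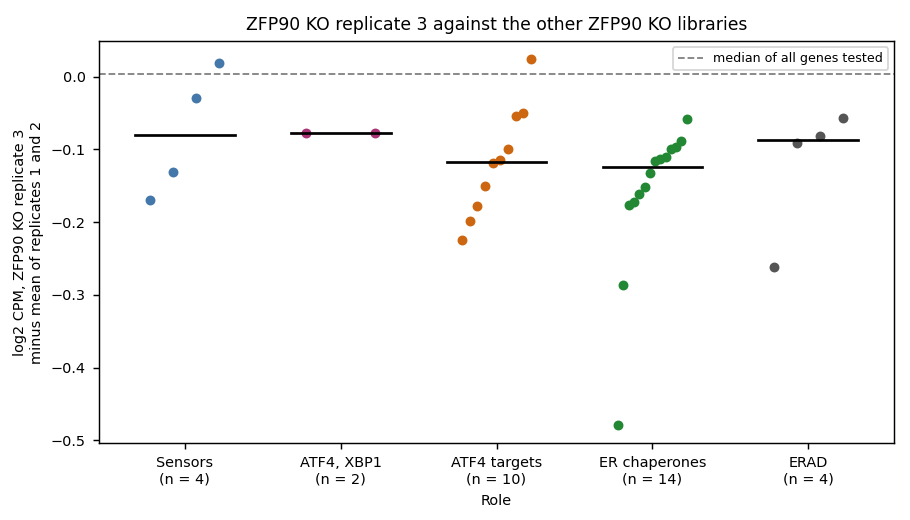
Log2 CPM of ZFP90 KO replicate 3 minus the mean of ZFP90 KO replicates 1 and 2 (y axis) for each tested gene, grouped by role, with the median of each role as a black line and that of all genes as a dashed line. All 14 ER chaperones lie below 0, and the median of each role lies below the dashed line.

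These genes were among the more abundant transcripts of the cells. On a per-length scale (RPKM, the CPM divided by exon length in kilobases), 23 of the 34 tested genes lay above the 90th percentile of all genes tested and 33 above the 50th. HSPA5 led at 1122 ± 124.9 RPKM in ZFP90 KO libraries and 1098 ± 186.7 RPKM in Control libraries (SD, n = 3 each). HSP90B1 followed at 660.2 ± 44.6 RPKM in ZFP90 KO libraries and 700.5 ± 44.2 RPKM in Control libraries (SD, n = 3 each), and then CANX at 401.0 ± 12.4 RPKM in ZFP90 KO libraries and 393.6 ± 3.94 RPKM in Control libraries (SD, n = 3 each). ASNS came next at 263.9 ± 20.2 RPKM in ZFP90 KO libraries and 292.5 ± 17.6 RPKM in Control libraries (SD, n = 3 each). CALR stood at 265.0 ± 11.7 RPKM in ZFP90 KO libraries and 274.1 ± 5.56 RPKM in Control libraries, and ATF4 at 259.3 ± 7.95 RPKM in ZFP90 KO libraries and 265.3 ± 13.7 RPKM in Control libraries (SD, n = 3 each). The ranges of ASNS, CALR and ATF4 given by these SDs overlapped in both groups. At the low end, EIF2AK3 stood at 7.33 RPKM in ZFP90 KO libraries and 7.67 RPKM in Control libraries, NUPR1 at 1.85 RPKM in ZFP90 KO libraries and 1.42 RPKM in Control libraries, and VLDLR at 0.0545 RPKM in ZFP90 KO libraries and 0.0827 RPKM in Control libraries. Exon lengths came from an annotation other than the authors', which bears on this scale.

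Reads of 11 members could be affected by another gene listed in the count files that overlaps an exon. For 9 of them that gene is on the opposite strand, which matters because the strand setting of the counting is not given. DDIT3 overlaps MARS in this way over 62 bases, SYVN1 overlaps MRPL49 over 93 and PDIA6 overlaps ATP6V1C2 over 1033. On the same strand, where no strand setting separates the genes, ASNS overlaps AC079781.5 over 1985 of its 2491 exon bases. HSP90B1 overlaps MIR3652 there over 131 bases. The level and fold change of ASNS carry this limit.

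Related genes outside the 35 were read from lists of the same pathways. Of 136 tested, 14 were higher and 9 lower (16.9%, against 21.1% of all genes), with a median log2 fold change of -0.004. Among 20 other ATF4 targets, 4 were higher and 2 lower. CTH, which makes cysteine from cystathionine, had 48.2, 46.2 and 50.9 CPM in ZFP90 KO libraries and 33.3, 31.7 and 39.1 CPM in Control libraries (log2 fold change 0.48, SE 0.086, adjusted p = 0.00538). ATF3, a stress-induced bZIP factor, had 138.2, 144.4 and 131.8 CPM in ZFP90 KO libraries and 107.9, 115.6 and 112.4 CPM in Control libraries (0.30, SE 0.054, adjusted p = 0.00527). Both had groups without overlap. PSPH, of serine synthesis, was also higher (0.32, adjusted p = 0.0348), and as it lies on chromosome 7, its estimate without Control replicate 2 was 0.22 (adjusted p = 0.00568).

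ALDH1L2, a mitochondrial folate enzyme, showed the largest difference in these lists. It had 1.87, 1.70 and 1.90 CPM in ZFP90 KO libraries and 10.3, 8.82 and 9.56 CPM in Control libraries, without overlap. It fell by 2.38 on the log2 scale (SE 0.14, adjusted p = 2.05e-05). SLC7A11, the cystine transporter, averaged 387.0 ± 16.2 CPM in ZFP90 KO libraries and 464.8 ± 17.1 CPM in Control libraries (SD, n = 3 each) and fell by 0.265 on the log2 scale (SE 0.052, adjusted p = 0.00879).

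A list of 12 heat shock protein and cochaperone genes outside the ER, 10 of the cytosol with HSPD1 and HSPE1 of the mitochondria, had 6 higher and 1 lower gene (58.3% called, against 21.1% of all genes). With DESeq2, 4 were higher and 1 lower, when 17.2% of all genes were called. Of the 6, HSPA1A, HSPA1B and HSP90AB1 on chromosome 6 and DNAJA1 on chromosome 9 lie where Control replicate 2 was low, and without that library 7 were higher and 1 lower, when 27.7% of all genes were called. HSPA1B, an inducible Hsp70, had 69.4, 53.0 and 62.2 CPM in ZFP90 KO libraries and 36.9, 34.4 and 38.4 CPM in Control libraries, without overlap (log2 fold change 0.75, SE 0.098, adjusted p = 0.00116), and 0.715 without Control replicate 2 (adjusted p = 6.49e-06). HSPA1A was higher as well, at only 2.3, 1.49 and 1.96 CPM in ZFP90 KO libraries and 0.988, 1.18 and 0.672 CPM in Control libraries. Its log2 fold change was 1.005 (SE 0.28, adjusted p = 0.0327), and 1.19 without Control replicate 2. The call was lost without ZFP90 KO replicate 1 or 3 and without Control replicate 1 or 3, at adjusted p of 0.0861 to 0.127. Reads of the near-identical HSPA1A and HSPA1B may be split between the copies. DNAJA1, an Hsp70 cochaperone, had 254.2, 232.6 and 251.0 CPM in ZFP90 KO libraries and 182.3, 125.4 and 176.9 CPM in Control libraries (0.61, SE 0.12, adjusted p = 0.00986). It lies on chromosome 9, and without Control replicate 2 its estimate was 0.45 (adjusted p = 3.4e-06). DNAJB1, another Hsp70 cochaperone, was lower (-0.24, adjusted p = 0.0118).

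The remaining lists had 4.76% to 16.7% of their genes called, against 21.1% of all genes tested. The lists are small, so these shares were not read as a difference. Among 11 genes of eIF2 and its kinases, 1 was higher: EIF2AK1, the heme-regulated kinase HRI, averaged 244.9 ± 1.84 CPM in ZFP90 KO libraries and 184.1 ± 21.7 CPM in Control libraries (SD, n = 3 each; 0.41, SE 0.079, adjusted p = 0.00755). It lies on chromosome 7, and without Control replicate 2 the estimate was 0.32 (adjusted p = 8.23e-05). Among 6 genes of the ATF6 and CREB3 branch, the membrane-bound factor CREB3L4 was lower (-0.66, adjusted p = 0.00454). Cytosolic tRNA synthetases had 1 higher and 1 lower of 20, KARS (0.15) and EPRS (-0.21). Other ER folding factors had 1 higher and 2 lower of 22, the prolyl isomerase FKBP7 (0.72), the ER oxidase ERO1LB (-0.45) and the prolyl isomerase PPIB (-0.19). Other ERAD genes had 1 lower of 21, the lectin ERLEC1 (-0.19), and the translocon and oligosaccharyltransferase list had 1 higher and 1 lower of 24, SSR3 (0.19) and STT3B (-0.19).

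Of these 19 genes, 8 kept their call with each library left out in turn: CTH, ATF3, ALDH1L2, SLC7A11, EIF2AK1, CREB3L4, HSPA1B and DNAJA1. The other 11 lost it without at least 1 library: 10 without ZFP90 KO replicate 1, 5 without ZFP90 KO replicate 2, 10 without ZFP90 KO replicate 3, 7 when Control replicate 1 was left out, 0 for Control replicate 2 and 7 for Control replicate 3. The highest adjusted p in these fits was 0.0533 for DNAJB1, without ZFP90 KO replicate 3, and 0.0602 to 0.154 for the other 10.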

How the data were processed

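RNA of 3 ZFP90_KO and 3 Control HCT116 libraries was prepared with an Illumina TruSeq kit, per the labels' protocols. The deposited files hold raw whole-number read counts per gene symbol; TopHat2 2.0.11, HTSeq, hg19 and GRCh37 are named in the submitters' processing notes, and the strand setting is not given in the sources used here. The 5 summary lines, 31.7% to 32.37% of reads with 7.44% to 7.81% ambiguous, were left out of library sizes.

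Counts were filtered (filterByExpr, minimum count 10, total 15), scaled with TMM and tested with edgeR 4.0.16 (quasi-likelihood, limma 3.58.1, R 4.3.3) on all 6 libraries, with Benjamini-Hochberg adjustment over 16369 genes and calls at an adjusted p under 0.05. CPM uses TMM-scaled library sizes. SE and 95% intervals are of the log2 fold change. DESeq2 1.42.0 and limma-voom were alternatives. The procedure was tested on simulated data. Gene positions and exon lengths came from GENCODE release 29 (GRCh38), matched by symbol, for 87.5% of tested genes, and were used for chromosomes and RPKM; promoters came from RefSeq.

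The members and lists were chosen with earlier results of these data known. All 35 members are named; from each other list, up to 3 called genes per direction with the largest change are named. Replicates within a group differed beyond sampling noise. Chi-square per degree of freedom was 2.19 for Control replicates 1 and 3 and 2.58 to 3.94 between ZFP90 KO libraries. Control replicate 2 stood at 19.7 and 19.6 from the other controls, while those 2 controls stood at 15.6 to 20.8 from ZFP90 KO libraries. No sample was left out of the main test.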

Additional observations from a re-analysis of the deposited data

How the results depend on the processing

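Under the 15 or 16 alternatives run for each, no named gene with a call changed sign. Among the 34 tested members, 23 kept the sign of the log2 fold change in every alternative and 11 did not. Over the single genes named and these alternatives, 756 values kept their side of the threshold, 84 lost it and 23 gained it. For the members, the main counts were 1 higher and 3 lower, when 21.1% of all genes were called. They became 2 and 3 with DESeq2 size factors (21.1% of all genes) and 0 and 5 with library size alone (20.3%). Without a filter on low counts, 4 were higher and 4 lower of 35 members, when 13.6% of all genes were called. In that fit the share of members called was above that of all genes. Its 31920 genes, against 16369 in the main fit, include the low-count genes otherwise filtered out, so the 2 shares are not on a like footing. At a minimum count of 30 there were 2 higher and 3 lower (24.3% of all genes). At an adjusted p under 0.01 there were 0 and 0 (9.08%). Leaving out 1 library gave 0 to 2 higher and 0 to 4 lower, with 10.7% to 27.7% of all genes called. After correction of Control replicate 2 by a running median over 51 neighbouring genes, 4 were higher and 7 lower, and 30.9% of all genes were called. The share of members called was slightly above that of all genes there too. The running median was taken of the ratio of Control replicate 2 to the other controls. The correction thus narrows the scatter among the controls by construction, and a rise in calls follows from it.

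For all genes, 986 were higher with library size alone, 618 higher and 869 lower at an adjusted p under 0.01, and 2505 higher after the correction. Leaving out 1 library gave 756 to 2261 higher and 1025 to 2361 lower. For the related genes outside the members, whose alternatives were chosen after seeing the data, the main 14 higher and 9 lower became 8 and 15 with library size alone, 23 higher without a filter, 6 and 3 at an adjusted p under 0.01, and 29 and 23 after the correction. Leaving out 1 library gave 6 to 28 higher and 3 to 17 lower.

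The replicate number as a block gave 2 members higher and 5 lower, with 21.2% of all genes called. Same-numbered libraries correlated at 0.049, 0.145 and 0.093 in their deviations from the group means, and each library correlated best with its own number. With 3 libraries per group, these values cannot decide whether the libraries were paired.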
